A study of Mus musculus with 55 samples.

Results

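The comparison described here asks whether chronic social defeat stress (CSDS) altered gene expression in the ventral dentate gyrus differently by housing. Male C57BL/6J mice were raised in an enriched environment (EE) or in standard housing (SH). EE meant larger cages and larger groups of mice, with tunnels, toys and running wheels. For each gene the control mice were subtracted from the defeated mice within each housing, and the difference in SH was then subtracted from the difference in EE, so that a positive value means that defeat moved the gene upward in EE relative to SH. Defeated stands for the mean of the resilient (RES) and the susceptible (SUS) group, to which mice were assigned by a social interaction ratio above or below 1. The contrast uses every mouse of the series, 54 of 54, from 6 groups: SH housed 10 control, 7 RES and 10 SUS animals, and EE housed 9 of each kind. The mice carried no engineered allele, were placed in their housing as weanlings and were sampled as young adults, and each library came from the dissected tissue of a single animal. Control mice of both housings were not defeated, whereas RES and SUS mice had met CD1 aggressors on successive days before the social interaction test. Between sessions the defeated mice stayed in a divided cage beside an aggressor, so those of EE were away from their enriched cages. The study's methods do not describe the cages of control mice over these days. In EE an effect of leaving enrichment therefore cannot be told apart from one of defeat, and was not tested. Because RES and SUS mice were sorted by behavior after defeat, the groups are not random draws of the defeated mice, and the mean weights RES and SUS equally whatever their share in a cohort.

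The dentate gyrus is the entry point of the hippocampus, where densely packed granule cells receive cortical input and pass it to mossy cells of the hilus and to CA3 pyramidal cells, and where new granule neurons are made in adult life. Its ventral end is tied to stress hormones and to emotional behavior. Social defeat engages glucocorticoid signaling and body-wide immune and blood responses, while enrichment is known to act on plasticity genes and on neurogenesis. A gene can therefore respond to defeat alike in both housings, which leaves the contrast at 0, or respond in a housing-dependent way, which moves it away from 0.

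The libraries held between 32223034 and 49990637 read pairs (median 44765652), and the counts on genes ranged from 16760009 to 45872357 per mouse, the highest being EE control mouse 9, whose 2 runs were summed. The tissue carried the markers of its label, since the 10 granule cell markers, Prox1 among them, summed to group medians between 917.7 and 1089 CPM (read counts scaled to library size by TMM). Markers of neighboring tissue were uneven between mice. The 11 choroid plexus markers that were tested summed to group medians between 23.06 and 25.92 CPM, but reached 1014 CPM in SH control mouse 3, and the 11 thalamus markers ranged from 153.4 to 858.7 CPM.

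Among 18283 genes tested with edgeR the interaction reached an adjusted p below 0.05 in 0 genes (0%), and none passed with limma-voom or DESeq2. The smallest adjusted p was 0.772 with edgeR, 0.801 with limma-voom and 0.753 with DESeq2. At an unadjusted p below 0.05, edgeR gave 1153 genes, limma-voom 1099 and DESeq2 1159. The 581 genes of higher difference by edgeR were 3.18% of the genes tested, and the 572 of lower difference were 3.13%. At the criterion the study used for DEGs, a fold change above 1.3 with an unadjusted p below 0.05 in limma-voom, 105 genes were higher (0.574%) and 203 lower (1.11%). When SUS or RES mice alone stood for defeat, again no gene passed adjustment with edgeR, with 687 genes at an unadjusted p below 0.05 for SUS mice (1.94% higher, 1.82% lower) and 1463 for RES mice (3.94% and 4.06%). Both versions share the control mice.

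The defeat effect was also counted within each housing. In SH, defeated and control mice differed at an adjusted p below 0.05 in 2 genes by edgeR (0.0109%), the beta-globin genes Hbb-bt and Hbb-bs, and 504 genes had an unadjusted p below 0.05 (1.33% higher, 1.43% lower). In EE no gene passed with edgeR, where the smallest adjusted p was 0.118, but 1796 genes had an unadjusted p below 0.05 (5.16% higher, 4.67% lower). Limma-voom called 1 gene in SH and 0 in EE, and DESeq2 called 6 and 2. The difference between these counts was not tested. Without SH control mouse 1 or 4 no gene passed in SH by edgeR, without SH SUS mouse 7 or EE SUS mouse 7 there were 4 and without EE SUS mouse 3 there were 5, and in EE there were 3 without EE control mouse 5. Across the 18283 genes, which are not independent replicates, Spearman's rho between the SH and EE defeat effects was -0.0641 and Pearson's r was 0.0488.

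**Figure D1:**
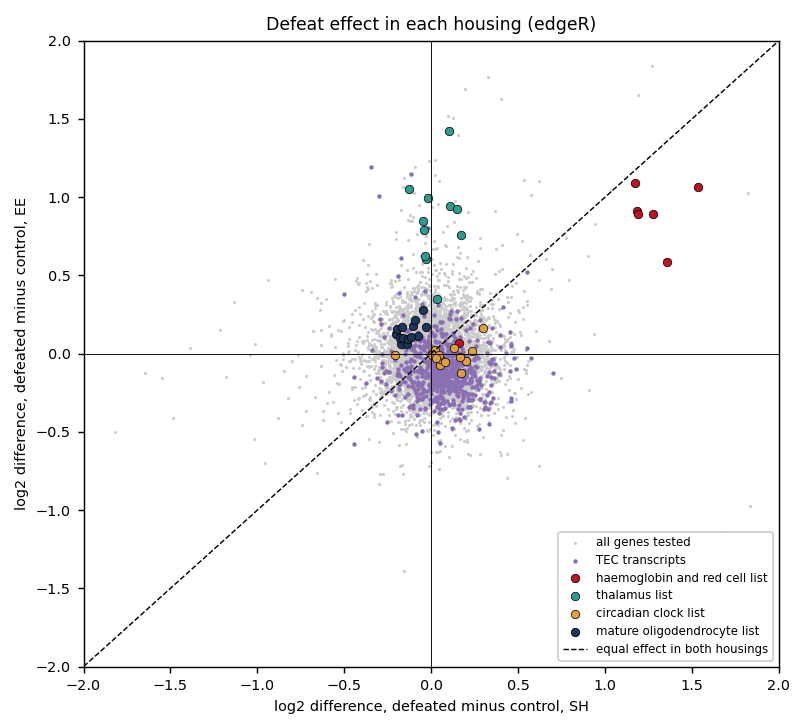
Defeat effect per gene in SH (x axis) and EE (y axis), each a log2 difference of defeated minus control mice from edgeR; each point is a gene, colored for 4 gene lists and for TEC transcripts (provisional gene models), and the dashed line marks equal effects. Most red cell genes lie to the upper right, thalamus genes above 0 in EE near 0 in SH, and 8 of the 18283 genes, Slc4a1 among them, fall outside the axes.

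Among the 1153 genes at an unadjusted p below 0.05, 1109 had defeat effects of opposite sign in the 2 housings (96.2%, beside 53.1% of all genes tested), a share that choosing genes by this difference raises in itself. The effect in EE was the larger of the pair in 882 of them, beside 11208 of all 18283 genes tested. Of the 1153 genes, 671 had an unadjusted p below 0.05 for defeat in EE and 165 for defeat in SH. Over all genes tested these counts were 1796 and 504. Choosing genes by the difference raises the shares with a defeat effect as well. The median size of the difference in the 1153 genes was 0.227 on the log2 scale, so most differences at this threshold were small. Among the 15240 tested genes that averaged at least 1 CPM, the 12 genes of smallest p in each direction had differences between 0.16 and 0.74 in size, and in all 24 the defeat effects had opposite signs. Their adjusted p from edgeR was 0.772 throughout, so these genes are described for their values and not as DEGs.

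All 12 genes of higher difference were protein coding. Ccdc74a, a coiled-coil gene (chromosome 16, 17646470 to 17650738 of GRCm38), had the smallest p. Its lowest, median and highest levels were 19.5, 22.9 and 27.3 CPM in SH control, 19.1, 21.1 and 22.8 CPM in SH RES and 19.6, 21.4 and 23.2 CPM in SH SUS mice. In EE they were 18.1, 20.8 and 22.6 CPM in control, 21.4, 22.7 and 24.5 CPM in RES and 19.5, 22.4 and 24.1 CPM in SUS mice. The medians of defeated groups thus lay below the control median in SH and above it in EE, with overlapping ranges, and 1 of 17 defeated mice in SH but 15 of 18 in EE exceeded the control median of their housing. The interaction was 0.25 on the log2 scale (standard error 0.06, p = 0.00022 from edgeR), composed of -0.13 in SH and 0.12 in EE, and it was 0.22 with SUS mice and 0.29 with RES mice.

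Fbxo45, which encodes a substrate adaptor of a ubiquitin ligase that acts at synapses (chromosome 16, 32230112 to 32247158), differed between control and defeated mice mainly in EE. Its lowest, median and highest levels were 55.2, 62.7 and 67.3 CPM in SH control, 49.5, 59.4 and 65.7 CPM in SH RES and 57.3, 59.8 and 66.6 CPM in SH SUS mice, against 52.6, 57.4 and 67.3 CPM in EE control, 61.5, 69.0 and 71.4 CPM in EE RES and 59.6, 62.6 and 68.1 CPM in EE SUS mice. All 18 defeated EE mice lay above the EE control median, and 5 of 17 did so in SH. The difference was 0.20 (standard error 0.06, p = 0.000552 from edgeR), with -0.04 in SH and 0.17 in EE. Another F-box gene, Fbxl14, differed by 0.18 (standard error 0.05). Rgs8, a regulator of G-protein signaling, had medians of 112.4, 114.5 and 117.2 CPM in SH control, RES and SUS mice and of 108.5, 122.0 and 128.6 CPM in EE. Its defeat effect was -0.02 in SH and 0.21 in EE, a difference of 0.23 (standard error 0.07), and 17 of 18 defeated EE mice exceeded the EE control median.

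Tnfrsf12a, the receptor of the cytokine TWEAK, showed the largest difference of the 12, at 0.71 (standard error 0.20, p = 0.00085 from edgeR), but at a level near 1 CPM. Its medians were 1.501, 0.93 and 1.32 CPM in SH control, RES and SUS mice and 1.21, 1.48 and 1.69 CPM in EE. Gpr153, an orphan G-protein coupled receptor, differed by 0.52, the extracellular protease gene Adamts8 by 0.50 and the Rab escort gene Chml by 0.44. The remaining genes were Rcan1, an inhibitor of calcineurin (0.21), Lsm4, part of RNA-binding Sm-like complexes (0.19), Arpin, an inhibitor of the Arp2/3 complex (0.17), and B4galt2, a galactosyltransferase (0.16).

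Of the 12 genes of lower difference 4 were protein coding and 5 were TEC transcripts, a class taken up below. Rnf39, a RING finger gene (chromosome 17, 36942918 to 36947986), had the smallest p for defeat within EE. Its lowest, median and highest levels were 1.33, 1.495 and 2.001 CPM in SH control, 1.29, 1.61 and 2.03 CPM in SH RES and 1.05, 1.53 and 2.11 CPM in SH SUS mice. The EE levels were 1.28, 2.08 and 2.27 CPM in control, 0.84, 1.35 and 1.61 CPM in RES and 1.01, 1.23 and 1.601 CPM in SUS mice. The SH groups overlapped throughout, whereas none of the 18 defeated EE mice reached the EE control median, which was itself the highest of the 6 medians. The difference was -0.59 (standard error 0.16, p = 0.000425 from edgeR), with 0.04 in SH and -0.56 in EE, and the EE effect had an adjusted p of 0.118 with edgeR and 0.04 with DESeq2.

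Rgs9, another regulator of G-protein signaling, had medians of 12.2, 13.3 and 12.3 CPM in SH control, RES and SUS mice and of 12.7, 10.7 and 10.6 CPM in EE, a difference of -0.34 (standard error 0.10). Only 1 of 18 defeated EE mice exceeded the control median. Cdh13, which encodes the membrane-anchored T-cadherin, differed by -0.26 (standard error 0.08) and did so more with RES mice (-0.39) than with SUS mice (-0.14), a contrast within the mean that was not tested. Its highest level, 88.5 CPM, was in a SH RES mouse. Fam229b differed by -0.24 and the pseudogene Cdk3-ps by -0.74, the latter at a median level between 0.90 and 1.44 CPM in the 6 groups, where its reads may be shared with Cdk3. The processed transcript Gm5087 differed by -0.61. An entry without a symbol, ENSMUSG00000093561, differed by -0.62.

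**Figure D2:**
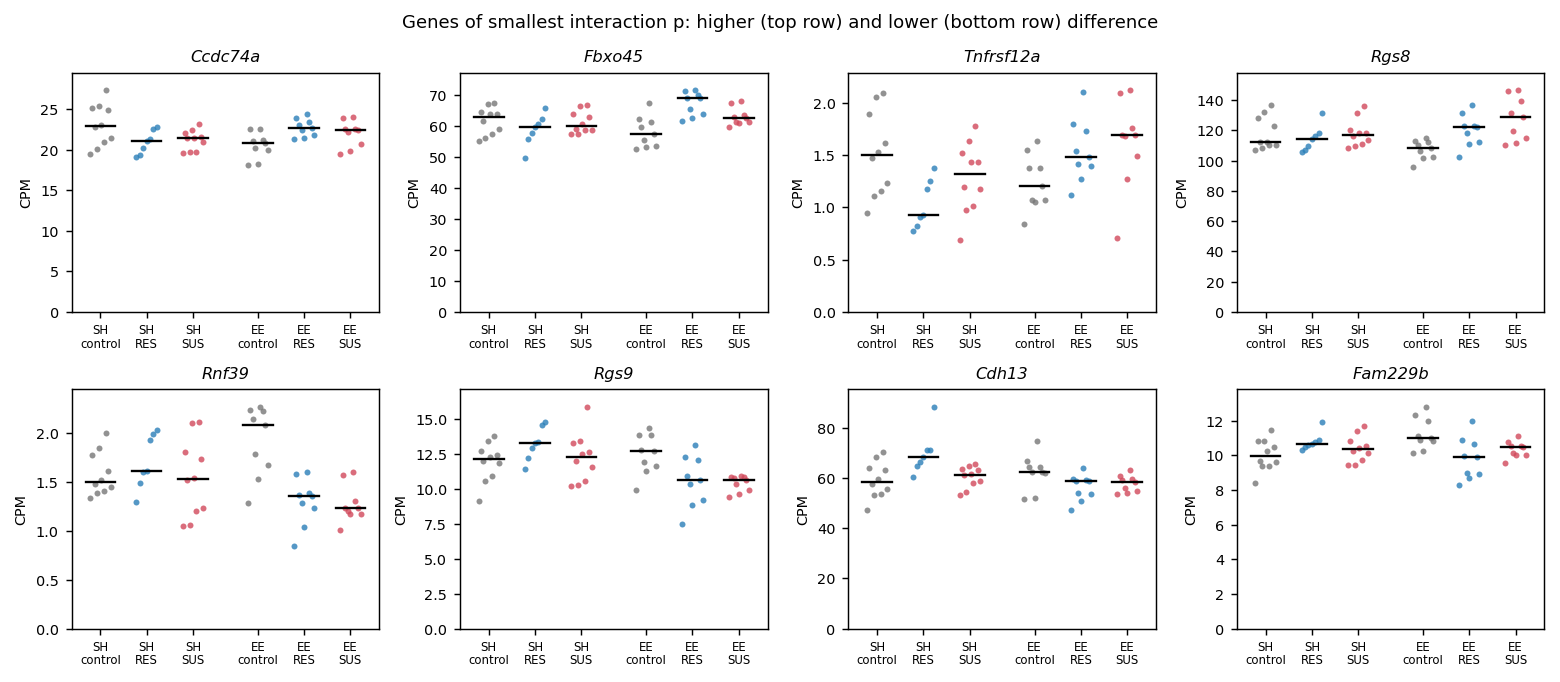
Levels in CPM (y axis, from 0) of 8 genes of smallest interaction p in each of the 54 mice by group (x axis); points are mice, in gray for control, blue for RES and red for SUS, and bars are medians. In the top row the defeated EE groups have medians above EE controls, in the bottom row below them, and groups overlap in every panel.

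Red cell genes carried the only effect that passed the test in either arm with edgeR, and their defeat effects were in the same direction in both housings. Hbb-bs (chromosome 7, 103826534 to 103828096), a beta chain of adult hemoglobin, had lowest, median and highest levels of 30.6, 49.4 and 61.5 CPM in SH control, 58.5, 100.6 and 157.0 CPM in SH RES and 42.7, 129.5 and 243.7 CPM in SH SUS mice. In EE the levels were 35.3, 48.2 and 66.4 CPM in control, 50.4, 84.7 and 132.3 CPM in RES and 32.1, 106.8 and 252.5 CPM in SUS mice. Defeated mice exceeded the control median in 16 of 17 cases in SH and 17 of 18 in EE. Hbb-bs rose by 1.28 on the log2 scale in SH (adjusted p = 0.0132 from edgeR) and was 0.90 higher in EE, where it did not pass adjustment. The difference between housings was -0.38 (standard error 0.32, p = 0.238 from edgeR), with a 95% interval from -1.02 to 0.26, so that neither an equal effect nor one smaller by 1.02 in EE lies outside the interval.

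Hbb-bt rose by 1.53 in SH (adjusted p = 0.0132 from edgeR) and was 1.06 higher in EE, a difference of -0.47 (95% interval -1.24 to 0.30). Hba-a1, an alpha chain, differed by -0.27 and Alas2, the first enzyme of heme synthesis in red cells, by -0.08 (95% interval -0.78 to 0.61), with effects of 1.17 in SH and 1.09 in EE. Of 11 genes on the list of hemoglobin and red cell genes 8 were tested. None had an unadjusted p below 0.05 for the interaction, and the median difference was -0.282, beside 0.000973 over all genes tested, with all 8 values below 0. For defeat itself all 8 were higher at an unadjusted p below 0.05 in SH and 6 were in EE, beside 1.33% and 5.16% of all genes, with medians of 1.23 and 0.904. In bulk tissue, more red cells or precursors and more RNA per cell cannot be told apart.

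Among stress hormone and activity genes, 1 of 19 genes on the glucocorticoid list was higher and 1 lower at an unadjusted p below 0.05, beside 3.18% and 3.13% of all genes, with a median of 0.025. A count of 1 in a list of this size is near that background. Sgk1, a kinase gene induced by glucocorticoids, differed by 0.20 (standard error 0.10) and was above the EE control median in all 18 defeated EE mice, with effects of -0.02 in SH and 0.19 in EE. Zbtb16, another glucocorticoid target, differed by -0.22. Fkbp5, the chaperone gene that dampens the glucocorticoid receptor, differed by 0.05 (95% interval -0.14 to 0.23). None of 20 immediate early genes had an unadjusted p below 0.05 (median 0.0417), and Fos differed by 0.17 with a standard error of 0.25.

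Among 14 tested opioid and stress peptide genes, 1 was higher and 1 lower at an unadjusted p below 0.05 (median -0.0141). This is near the background of 3.18% and 3.13% of all genes. Penk, the precursor of enkephalins, had lowest, median and highest levels of 9.57, 12.1 and 17.4 CPM in SH control, 11.8, 14.7 and 21.0 CPM in SH RES and 11.2, 13.5 and 15.8 CPM in SH SUS mice. Among EE mice they were 15.6, 21.3 and 24.9 CPM in control, 15.7, 19.6 and 23.6 CPM in RES and 15.5, 19.6 and 23.3 CPM in SUS mice. Its medians were thus higher in every EE group than in any SH group, and the defeat effect was 0.23 in SH and -0.05 in EE, a difference of -0.27 (standard error 0.13, p = 0.0367 from edgeR). Crh, the corticotropin-releasing hormone gene, differed by 0.55 (standard error 0.25) at levels near 0.8 CPM. The median over 14 neurotrophin and growth factor genes was 0.0165, and Bdnf differed by -0.01 with a 95% interval from -0.22 to 0.20.

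Some circadian clock genes were separated by defeat at an unadjusted p below 0.05 in SH and none in EE, which is not itself a test between housings. The interaction reached that threshold in 2 of them. The clock is a feedback loop in which Arntl (encoding BMAL1) drives the Per genes, Dbp and the Nr1d genes. Products of the Per and Nr1d genes in turn repress Arntl or its product. In SH, 6 of 16 clock genes were higher and 1 was lower at an unadjusted p below 0.05, beside 1.33% and 1.43% of all genes, and in EE none was. For the interaction 1 gene was higher and 1 lower, beside 3.18% and 3.13% of all genes. A count of 1 in a list of this size is near that background. Of the 16 values 14 lay below 0, and the median was -0.0896. Brains were taken within a fixed midday window per the study's methods, but the hour of each mouse was not given in the sources used here, so the part of collection time within that window was not tested.

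Per3, a Period gene of the repressing arm (chromosome 4, 151003652 to 151044665), had lowest, median and highest levels of 49.2, 66.4 and 78.0 CPM in SH control, 66.8, 74.2 and 93.8 CPM in SH RES and 66.1, 72.9 and 83.5 CPM in SH SUS mice. In EE they were 65.5, 72.1 and 93.3 CPM in control, 57.4, 69.3 and 80.4 CPM in RES and 60.6, 67.5 and 86.4 CPM in SUS mice. In SH 16 of 17 defeated mice lay above the control median, against 2 of 18 in EE. The effect was 0.17 in SH and -0.12 in EE, a difference of -0.29 (standard error 0.09, p = 0.00181 from edgeR). Arntl (chromosome 7, 113207465 to 113314126) went the other way, with medians of 45.2, 41.1 and 38.5 CPM in SH control, RES and SUS mice and of 38.6, 40.1 and 39.1 CPM in EE. Its effect was -0.21 in SH and -0.01 in EE, a difference of 0.20 (standard error 0.08, p = 0.0232 from edgeR). Per2 (0.20 in SH, -0.04 in EE), Dbp (0.24 and 0.02), Ciart (0.30 and 0.16), Nr1d2 (0.13 and 0.03) and Bhlhe41 (0.17 and -0.02) had SH effects at an unadjusted p below 0.05 and interactions that did not reach it.

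Promoter sequences are printed for the clock genes of smallest p, since they show which clock elements lie near the start of each gene. They are from RefSeq (GRCm38.p6) and run from 250 bases before the start to 50 after it. Entries were matched for Per3, Arntl and Dbp of the 4 genes looked up, which also included Per2. The motifs searched on both strands were the E-box CACGTG bound by BMAL1, the core AGGTCA of the element bound by ROR and REV-ERB proteins, and the D-box TTATGTAA bound by DBP, in capitals where they occur. The promoter of Per3 (chr4:151044616-151044915, minus strand) holds 2 D-boxes, and that of the downstream start of Arntl (chr7:113207261-113207560, plus strand) holds 1 AGGTCA, while those of Dbp and the upstream Arntl start hold none of the motifs. Of 27025 promoters of the same length, 1 per gene, 0.955% hold the D-box, 16.0% the AGGTCA core and 7.24% the E-box.
Per3: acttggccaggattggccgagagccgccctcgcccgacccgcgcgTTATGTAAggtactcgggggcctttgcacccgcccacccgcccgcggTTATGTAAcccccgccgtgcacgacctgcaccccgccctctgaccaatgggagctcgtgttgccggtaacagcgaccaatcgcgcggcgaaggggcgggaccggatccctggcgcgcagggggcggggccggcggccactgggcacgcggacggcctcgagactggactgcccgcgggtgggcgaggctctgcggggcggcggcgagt
Arntl: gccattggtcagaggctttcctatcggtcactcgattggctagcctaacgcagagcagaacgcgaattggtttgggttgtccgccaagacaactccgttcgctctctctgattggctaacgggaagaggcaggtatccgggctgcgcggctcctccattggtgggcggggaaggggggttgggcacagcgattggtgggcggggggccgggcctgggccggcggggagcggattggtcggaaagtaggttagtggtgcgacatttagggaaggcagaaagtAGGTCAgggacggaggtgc
A match of these letters describes the window and is not a measured binding site.

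**Figure D3:**
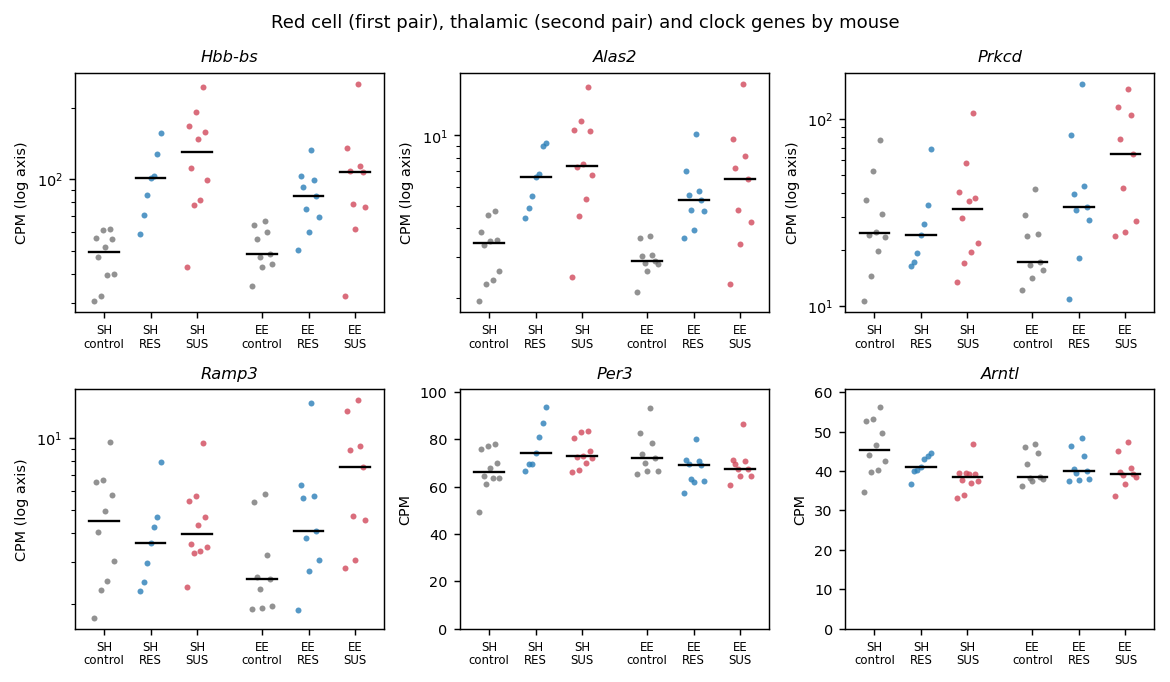
Levels in CPM (y axis, logarithmic for Hbb-bs, Alas2, Prkcd and Ramp3 and from 0 for Per3 and Arntl) in each of the 54 mice by group (x axis); points are mice and bars are medians. Hbb-bs and Alas2 have higher medians in defeated mice of both housings, and Prkcd and Ramp3 in defeated EE mice. Per3 medians of defeated groups lie above the control median in SH and below it in EE. Arntl differs between control and defeated mice mainly in SH.

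The list with the most members at an unadjusted p below 0.05 was that of thalamus markers, genes of a region that lies beside the ventral hippocampus. All 11 were higher in defeated EE mice at an unadjusted p below 0.05 and none was in SH, beside 5.16% and 1.33% of all genes. For the interaction all 11 had a difference above 0, with a median of 0.829, and 6 of 11 were higher at an unadjusted p below 0.05 (54.5%, beside 3.18% of all genes). Prkcd, a protein kinase C gene of thalamic relay neurons, had lowest, median and highest levels of 10.6, 24.5 and 76.9 CPM in SH control, 16.4, 24.1 and 68.7 CPM in SH RES and 13.5, 33.0 and 106.6 CPM in SH SUS mice. The EE levels were 12.2, 17.1 and 42.2 CPM in control, 10.9, 33.8 and 153.7 CPM in RES and 23.5, 65.0 and 144.2 CPM in SUS mice. The difference was 1.32 (standard error 0.53, p = 0.0151 from edgeR), with 0.10 in SH and 1.43 in EE, and 17 of 18 defeated EE mice exceeded the EE control median. Ramp3 differed by 1.18, Zic1 by 1.01, Rgs16 by 0.83, Rora by 0.66 and Plcb4 by 0.64. Tcf7l2, a transcription factor gene of Wnt signaling on the same list, differed by 0.89 (95% interval -0.14 to 1.92). With limma-voom 3 of the 11 were higher at an unadjusted p below 0.05, beside 544 of all 18283 genes, with a median of 0.631. The summed level of the 11 genes had medians of 289.5, 256.2 and 273.8 CPM in SH control, RES and SUS mice and of 219.8, 281.4 and 442.5 CPM in EE, with the lowest median in EE control mice.

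Genes of other lists, picked after their values were seen, had positive differences beside the thalamus markers. These were Adra1b, an adrenergic receptor gene (0.84), and Grm4, a metabotropic glutamate receptor gene (0.63). With the choroid plexus and thalamus marker scores of each mouse as covariates they became 0.01 and -0.06, while Fbxo45 was at 0.185, Rnf39 at -0.57, Rgs8 at 0.137 and Snap25, described below, at 0.125. Over all genes tested, that fit gave 381 higher and 605 lower at an unadjusted p below 0.05 by edgeR, beside 581 and 572 without these covariates. The part of neighboring tissue in single genes was not tested. The median of the thalamus list itself became 0.0147, which follows from the score being made of the same genes. At an unadjusted p below 0.05, 1 of 11 choroid plexus genes was higher, a count near the background of 3.18% of all genes. The choroid plexus list had a median of 1.46, with all 11 above 0. Its defining gene Ttr, the transthyretin gene, had a median below 1 CPM in every group but reached 872.3 CPM in SH control mouse 3, and without that mouse the median of the list was -0.191. With all mice the median was 0.0466 by limma-voom and 0.141 by DESeq2.

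Marker lists of the dentate gyrus itself had smaller differences. All 10 granule cell markers lay below 0 with a median of -0.172, with 1 lower at an unadjusted p below 0.05 (Maml2, -0.25) and none higher, beside 3.13% and 3.18% of all genes. The median was -0.264 with RES mice alone and -0.0616 with SUS mice alone, a contrast that was not tested. Prox1, the transcription factor gene that defines granule cells, had lowest, median and highest levels of 96.5, 147.3 and 184.1 CPM in SH control, 132.9, 153.1 and 175.7 CPM in SH RES and 104.8, 140.3 and 192.6 CPM in SH SUS mice. Among EE mice they were 79.7, 151.8 and 210.2 CPM in control, 96.5, 117.6 and 156.0 CPM in RES and 115.8, 133.7 and 157.3 CPM in SUS mice. The EE control mice thus spanned both the lowest and the highest level, and the difference of -0.24 had a 95% interval from -0.53 to 0.06. With the choroid plexus and thalamus covariates the median of the list was -0.0718.

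The list of immature granule neuron genes had a median of -0.157 with 1 of 10 lower, the microtubule gene Dcx at -0.18 (standard error 0.09), beside 3.13% of all genes. None of 15 progenitor and proliferation genes (median 0.0284) and none of 5 hilar mossy cell genes (-0.151) had an unadjusted p below 0.05. With RES mice alone the immature neuron and mossy cell medians were -0.245 and -0.268. With SUS mice alone they were -0.05 and 0.0183, a contrast that was not tested. Of 8 CA3 and CA2 pyramidal cell genes, 2 were higher, beside 3.18% of all genes (median 0.0791), Bok at 0.33 (standard error 0.13) and the adhesion gene Nectin3 at 0.29 (standard error 0.13). Bok was above the EE control median in all 18 defeated EE mice. Of the 8 genes, 1 was higher with the choroid plexus and thalamus covariates and 0 with the share of read pairs on no annotated gene as a covariate, both by edgeR. None of 8 CA1 genes (median -0.0274) and none of 17 interneuron genes (-0.0177) reached an unadjusted p below 0.05. These medians average opposite signs. The CA1 median was -0.315 with SUS mice alone and 0.234 with RES mice alone, and the interneuron median was -0.106 and 0.0728. The contrast between SUS and RES mice was not tested.

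All 14 oligodendrocyte markers had a difference above 0, from 0.188 to 0.354, beside 9217 of all 18283 genes. None had an unadjusted p below 0.05 by edgeR, and 2 were higher at that threshold by limma-voom, beside 544 of all genes. The median effect of the 14 markers was -0.137 in SH and 0.118 in EE. Their median difference was 0.27, or 0.102 with the choroid plexus and thalamus covariates. Mag, a myelin gene, had medians of 57.2, 46.0 and 49.1 CPM in SH control, RES and SUS mice and of 54.8, 57.3 and 68.2 CPM in EE, a difference of 0.35 (95% interval -0.02 to 0.72). These genes are expressed by the same cells, so their shared sign is not 14 independent observations. Among markers of microglia (14 genes, median -0.00912), astrocytes (13 genes, -0.0381), endothelial cells (14 genes, 0.0114) and meningeal fibroblasts (12 genes, -0.0232) no gene had an unadjusted p below 0.05.

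The lists of synaptic transmission held at most 1 gene in each direction, a count near the background of 3.18% higher and 3.13% lower. On the list of synaptic vesicle release, 1 of 21 genes was higher (median 0.0618). This was Snap25, a SNARE gene of vesicle fusion, with medians of 1379, 1392 and 1399 CPM in SH control, RES and SUS mice and of 1305, 1452 and 1559 CPM in EE. It differed by 0.19 (standard error 0.08), and all 18 defeated EE mice exceeded the EE control median. Of 22 glutamate receptor genes 1 was lower (median -0.0253), Grm8 at -0.31. Of 21 monoamine receptor genes 1 was higher and 1 lower (median -0.0107), Adra1b and the serotonin receptor gene Htr1a (-0.22). None of 12 GABA-A receptor subunit genes (-0.00617) and none of 21 interferon and antigen presentation genes (0.0169) reached an unadjusted p below 0.05, and 1 of 20 heat shock genes did (median 0.00961), Hspa4l at 0.16.

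Genes of mitochondrial respiration lay on opposite sides of 0 by the genome that encodes them, a contrast that was not tested. Of 80 nuclear oxidative phosphorylation genes 73 had a difference above 0, beside 9217 of all 18283 genes, with a median of 0.0497. At an unadjusted p below 0.05, 1 was higher and 1 lower (1.25% each), beside 3.18% and 3.13% of all genes. All 13 protein genes of the mitochondrial genome lay below 0, with a median of -0.152, and 1 was lower, mt-Cytb, a subunit of complex III, at -0.23 (standard error 0.11). Its medians were 1321, 1432 and 1401 CPM in SH control, RES and SUS mice and 1655, 1517 and 1586 CPM in EE. Of 76 cytosolic ribosomal protein genes 1 was lower (1.32%), Rps16 at -0.13, and the median was 0.0221. Counts of 1 in lists of these sizes are near or below the background. Members of these lists share transcripts or regulation, and many ribosomal genes have near-identical copies, so the counts of signs are descriptions only.

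**Figure D4:**
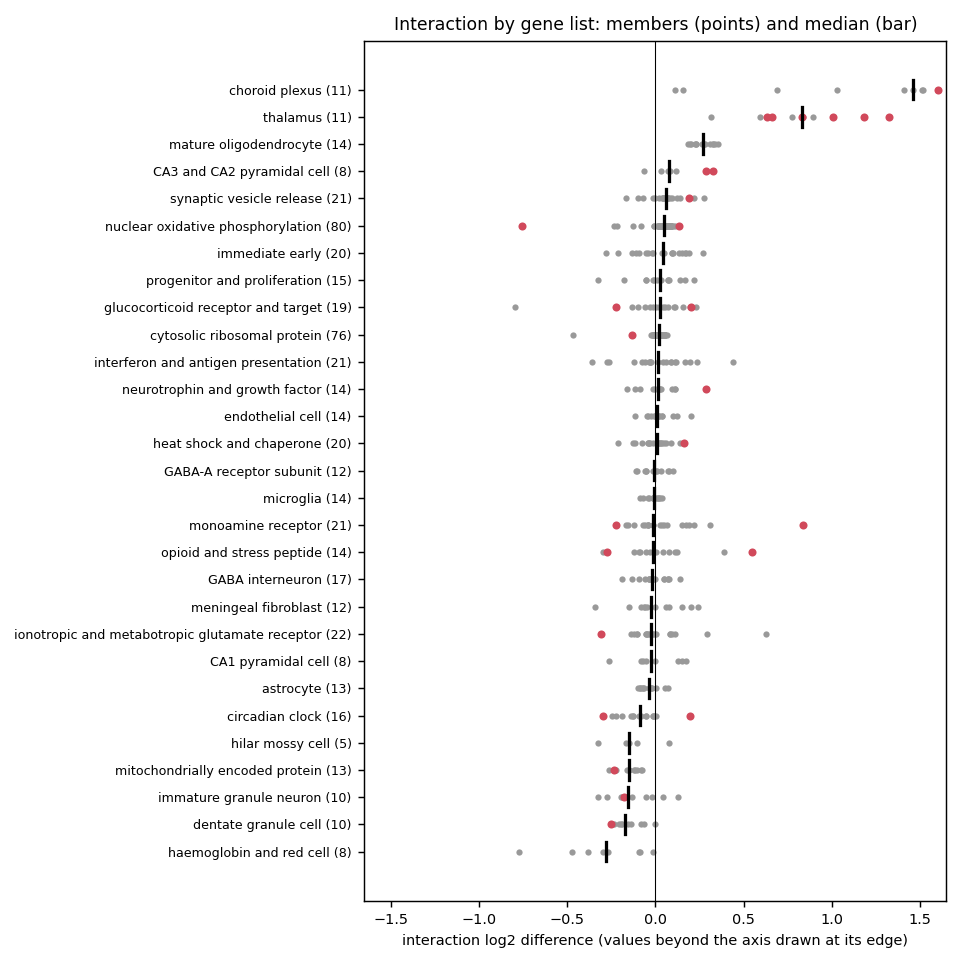
Interaction on the log2 scale (x axis) of the members of 29 gene lists (y axis, with the number of genes tested); gray points are genes, red points those at an unadjusted p below 0.05, and black bars are list medians. Medians of 21 lists lie within 0.1 of 0, and those of thalamus and choroid plexus lie farthest above 0.

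A class of transcripts that was chosen after its values were seen lay mostly below 0. TEC transcripts are provisional gene models that the annotation lists as awaiting experimental proof. Of 731 tested 597 had a difference below 0, with a median of -0.192, and 104 were lower and 4 higher at an unadjusted p below 0.05 (14.2% and 0.547%, beside 3.13% and 3.18% of all genes). Without EE control mouse 8, 63 were lower, while the count over all genes, both directions together, was 861 in place of 1153. The median effect was 0.0677 in SH and -0.12 in EE. By position 539 of the 731 lay within an intron of a protein-coding gene on the same strand, where the median was -0.212, while their 280 tested host genes had a median of -0.00682. The 130 sense-intronic transcripts had a median of -0.176 with 16 lower and 0 higher by edgeR, and the 14499 protein-coding genes a median of 0.008. Gm37747 (chromosome 2, 68989381 to 68993383), the TEC transcript of smallest p, had medians of 2.09, 2.71 and 2.51 CPM in SH control, RES and SUS mice and of 2.54, 1.98 and 1.86 CPM in EE, a difference of -0.65 (standard error 0.17).

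The share of read pairs on no annotated gene had a defeat effect of the same sign as these transcripts in each housing. Its lowest, median and highest values were 19.9%, 23.5% and 27.0% in SH control, 21.9%, 25.0% and 28.8% in SH RES and 21.8%, 23.9% and 28.2% in SH SUS mice. In EE they were 22.7%, 23.9% and 27.5% in control, 20.5%, 22.8% and 25.7% in RES and 20.6%, 23.1% and 26.4% in SUS mice. The defeat effect was 0.799 percentage points in SH and -1.41 in EE, a difference of -2.21 (permutation test with 100000 resamples within housing, 2-sided, p = 0.0471, adjusted p = 0.188 over 4 library measures). Because all labels within a housing were shuffled, the test assumes no group difference in either housing. It is therefore not a test of equal defeat effects alone. The summed level of TEC transcripts had medians of 1999, 2124 and 2059 CPM in SH control, RES and SUS mice and of 2038, 1868 and 1998 CPM in EE. With the no-feature share as a covariate, 448 of all 18283 genes were higher and 345 lower at an unadjusted p below 0.05 by edgeR. In that fit the median of the TEC class was -0.0231 with 20 lower and 15 higher. Per3 was -0.18 and the median of the granule cell list was -0.0909, while the thalamus list had a median of 0.95 with 10 of 11 genes higher. The part of the no-feature share in these differences was not tested beyond this.

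**Figure D5:**
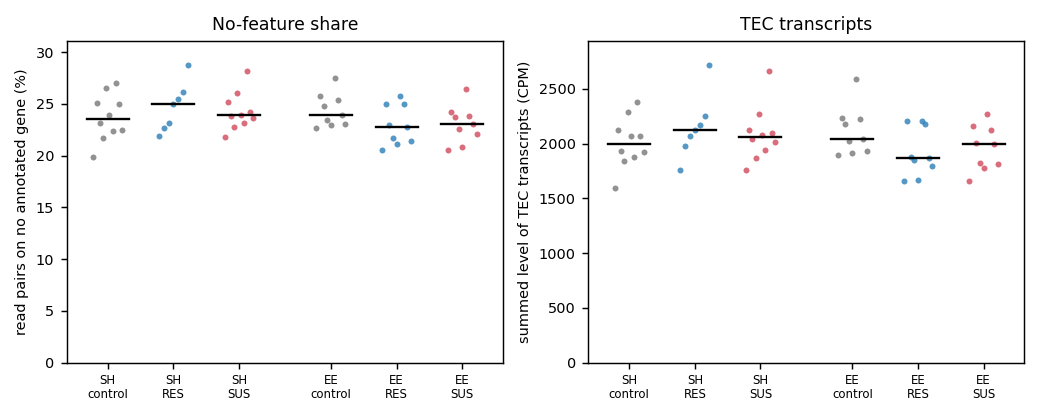
Share of read pairs on no annotated gene in percent (left, y axis from 0) and summed level of 731 TEC transcripts in CPM (right, y axis from 0) in each of the 54 mice by group (x axis); points are mice and bars are medians. Both medians are higher in defeated than in control mice in SH and lower in EE, with wide overlap.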

How the data were processed

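RNA of the ventral dentate gyrus was sequenced in pairs from 54 mice, giving 55 libraries because EE control mouse 9 was run in 2 libraries whose counts were summed (Pearson's r 0.9982 between the runs, against 0.9951 at most with another mouse). The authors deposited whole-number counts per gene, in a separate file for each library, in the layout of STAR gene counts. Their methods name STAR with the mouse genome GRCm38 (mm10 per the labels) and featureCounts for counting, so the deposited layout and the named counter differ. The column counting the reverse strand was used, since the forward column held 3.51 to 4.13% of the pairs. Rows that name no gene stayed out of library sizes and tests: unmapped pairs were 13.89 to 19.85% of a library, multimapping pairs 8.7 to 12.09%, pairs on no feature 19.89 to 28.79% and ambiguous pairs 0.84 to 1.12%. Gene totals per mouse had a median of 21552884. Symbols and positions were taken from GENCODE vM21 (GRCm38), which matched 44671 of 45318 identifiers.

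Genes were kept by filterByExpr, scaled by TMM and fitted with 6 group means by the edgeR quasi-likelihood test (edgeR 4.0.16, R 4.3.3), with Benjamini-Hochberg adjustment over all genes tested. The study criterion was applied with limma-voom (limma 3.58.1), and DESeq2 1.42.0 was an alternative. The methods give fewer mice per group than the files without naming them, so all were used. P-values not called adjusted are unadjusted and 2-sided. Intervals of 95% were computed from standard errors with 48 residual degrees of freedom. CPM ranges are over mice. Shares of read classes were compared by permuting labels within housing (SciPy 1.17.1). Tables and plots used data.table (version 1.17.8), Python 3.11.15, NumPy 2.4.6, pandas 2.3.3 and matplotlib 3.10.9. The fits were tested on simulated data.

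Named genes were the 12 of smallest p in each direction with a mean of at least 1 CPM, 2 of each of 29 gene lists, the genes Hbb-bs, Hba-a1, Fos, Fkbp5, Penk, Bdnf, Dcx, Prox1, Ttr and Tcf7l2, and further members where a list is described; results for some genes are not reported here. The comparison and the lists were chosen with earlier results of these data known. Replicate numbers were not taken to pair mice. Alternatives were other tools, scaling, filters, sample weights, unstranded counts, the first run alone, pooled defeated mice, a replicate block, covariates and leaving out each mouse.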

Additional observations from a re-analysis of the deposited data

Results flagged for a closer look

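Among 510 sets of a named gene in a group of 7 to 10 mice, 29 held a mouse whose distance to its nearest neighbor was above the 95% critical value of Dixon's test, where chance gives about 1 in 20, or 26. In SH control mice these were Clic6 in mouse 3 (20.8 CPM, the others at most 0.735) and Per3 in mouse 4 (49.2 CPM, the others at least 61.1).

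In SH RES mice they were Rcan1 (25.6 CPM) and Slc1a3 (883 CPM) in mouse 1, Grm4 (10.6 CPM), Mag (55.5 CPM) and Tcf7l2 (11.6 CPM) in mouse 4, Bdnf (97.1 CPM), Fam229b (11.9 CPM), Grm8 (14.7 CPM) and Sox11 (48.6 CPM) in mouse 5, Ocln (25.0 CPM) in mouse 6 and Ttr (1.94 CPM) in mouse 7. Rcan1 and Ocln were the lowest of the group and the others the highest. In SH SUS mice they were Irf7 (1.8 CPM) in mouse 2 and Arntl (46.8 CPM) in mouse 5, both highest.

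In EE control mice they were ENSMUSG00000093561 (2.11 CPM, lowest) in mouse 2, Rpl24 (1.34 CPM, highest) in mouse 3 and Ifit1 (1.57 CPM, lowest) in mouse 9. In EE RES mice they were Fosb (0.917 CPM, lowest) in mouse 4, Ifit1 (3.16 CPM, highest) in mouse 5, Hspa4l (229 CPM, highest) in mouse 8 and Rpl24 (1.09 CPM, highest) in mouse 9. In EE SUS mice they were Cdk3-ps (0.679 CPM) and Rpl24 (0.0566 CPM), both lowest, in mouse 1, Siglech (22.1 CPM, highest) in mouse 7 and Per3 (86.4 CPM, highest) in mouse 8. EE SUS mouse 9 was the highest for Bdnf (89.5 CPM) and the lowest for Tnfrsf12a (0.71 CPM) and mt-Cytb (999 CPM).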

How the results depend on the processing

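No gene passed adjustment for the interaction, or with SUS or RES mice alone, under any alternative run or without any 1 mouse (0 to 0). Pooling RES and SUS mice gives no value for the last 2 of these. Leaving out 1 mouse, the unadjusted interaction count ran from 861 (EE control mouse 8) to 1702 (EE control mouse 5). It was 448 higher and 345 lower with the no-feature covariate, and 802 higher and 974 lower without a filter on low counts. With choroid plexus and thalamus covariates it was 381 higher and 605 lower. For defeat in SH, where edgeR called 2 genes, DESeq2 called 6, limma-voom 1 and sample quality weights 1, and leaving out 1 mouse gave 0 to 5. For defeat in EE, with 0 by edgeR, DESeq2 called 2 (Alas2 and Rnf39), quality weights 1 (Rnf39), and leaving out 1 mouse gave 0 to 3. The 308 genes at the study criterion became 1005 without a filter on low counts, 192 with at least 1 CPM in 7 mice and 257 to 420 without 1 mouse. The cause of these shifts was not tested beyond the changed number of genes. Of 87 named genes, the difference reversed for Ttr with limma-voom (-0.339), for Grm4 (-0.0604), Bdnf (0.00868) and Tcf7l2 (-0.209) with choroid plexus and thalamus covariates, and without 1 mouse for Clic6 (-0.339 to 4.38) and Bdnf (-0.0699 to 0.0306). List medians moved for choroid plexus (0.0466 with limma-voom, 0.141 with DESeq2, 0.123 with those covariates, -0.0391 with the no-feature share, -0.191 without SH control mouse 3) and thalamus (0.0147 with the covariates, which are made of the same genes, Tcf7l2 included), and 13 of 29 changed sign without some 1 mouse. The no-feature covariate was added after the data were seen.

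Deviations of same-numbered mice of different groups had a median r of 0.0262 over 126 pairs, from -0.258 to 0.44. For mice of other numbers the median was -0.00397 over 1086 pairs. Of the 126 pairs 32 were above 0.1, a count not made for the other pairs. Since both medians were near 0, the numbers were not taken to pair mice. With a replicate block the interaction gave 0 adjusted and 1264 unadjusted genes, the study criterion 349, and defeat 2 genes in SH and 0 in EE, and the choroid plexus median was 0.509.

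Each value rests on 7 to 10 mice per group in bulk tissue. A difference between housings has a wider error than either defeat effect, and for red cell genes the interval spans more than 1 log2 unit, so a missing call is no evidence of equal effects.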

Other observations

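Other transcript classes were examined in the same contrast after their values were seen. Beside 3.18% of all genes higher and 3.13% lower, antisense RNAs (439 tested) had a median of -0.0515 with 6 higher (1.37%) and 22 lower (5.01%) at an unadjusted p below 0.05, lincRNAs (428 tested) a median of -0.0507 with 6 higher (1.4%) and 21 lower (4.91%), and snoRNAs (156 tested) a median of -0.0931 with 0 higher and 6 lower (3.85%) by edgeR. Processed pseudogenes (1048 tested) had a median of 0.023 with 15 higher (1.43%) and 21 lower (2.0%). Their medians differed by behavioral group, at -0.0931 with SUS mice and 0.148 with RES mice, a contrast that was not tested. Many of these transcripts overlap or copy other genes, so their counts are uncertain.

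Interferon and antigen presentation genes, with few differences between housings, had 20 of 21 defeat effects above 0 in EE (median 0.0783, 6 higher at an unadjusted p below 0.05) and 18 of 21 in SH (median 0.124, 2 higher), beside 5.16% and 1.33% of all genes. Synaptic vesicle genes had 6 of 21 higher in EE and 0 in SH by edgeR, with medians of 0.0641 and 0.0122.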
